A study of Homo sapiens with 3 samples.

Results

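The genes described here encode the NF-kB transcription factor subunits (REL, RELA, RELB, NFKB1 and NFKB2) and 5 proteins of the IkB family (NFKBIA, NFKBIB, NFKBIE, NFKBIZ and BCL3). The rule names them by symbol and uses no level, and all 10 were found among the 15808 genes of the count table. RNA was sequenced from OCI-Ly10, an established human cell line of activated B cell-like diffuse large B cell lymphoma, after 6 h with MZ1. MZ1 is a degrader that ties BET bromodomain proteins to the von Hippel-Lindau ubiquitin ligase. The labelled samples form 1 group of 3 replicate libraries of this 1 line, all treated, and untreated cells were not analysed here. The data therefore give levels and their spread between libraries, and no effect of MZ1. The time point label of each library is 6 h, while the treatment protocol names 14 days as well. The labels give neither the dose nor whether the replicates came from separate cultures, so p-values measure only the spread between these libraries, which may be technical.

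NF-kB acts as dimers of REL family proteins. RELA, REL and RELB carry activation domains, whereas the products of NFKB1 and NFKB2 are precursors (p105 and p100) that are processed to the DNA-binding subunits p50 and p52. The classical inhibitors IkB alpha, IkB beta and IkB epsilon hold dimers in the cytoplasm until the IKK kinase complex marks them for degradation, while IkB zeta (NFKBIZ) and BCL3 act in the nucleus as partners of p50 or p52 dimers. Activated B cell-like lymphoma is known for constant NF-kB activity that its cells need, and several of these genes are themselves NF-kB targets.

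The DNA element that NF-kB binds, the kB consensus, was looked for in RefSeq promoter windows (GRCh38.p14, 250 bases before to 50 after an annotated start, both strands, overlapping matches merged for display). The table held 14 windows for 8 of the 10 genes, and RELB and NFKBIE were not matched. A match was present in 9 of the 14 windows and in 7 of the 8 genes, while 11.3% of all 35116 windows held one. Genes with several windows had more chances of a match, and a match describes letters and not a bound site. The sequences below show matches that lie upstream of a RefSeq start, from 6 members. BCL3 also had a match, past its RefSeq start, and its sequence is not shown. Capitals mark the consensus match, each sequence runs 5′ to 3′ on the gene's strand, and 2 are given for NFKB2.
REL, chr2:60881518-60881547, plus strand: gtcagccgcGGGAAATTCCCctcccgccag
NFKB1, chr4:102501300-102501329, plus strand: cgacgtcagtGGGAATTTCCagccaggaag
NFKB2 upper, chr10:102394462-102394491, plus strand: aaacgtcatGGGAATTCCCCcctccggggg
NFKB2 lower, chr10:102394490-102394519, plus strand: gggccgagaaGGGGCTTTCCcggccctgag
NFKBIA, chr14:35404811-35404840, minus strand: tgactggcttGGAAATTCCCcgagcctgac
NFKBIB, chr19:38899932-38899961, plus strand: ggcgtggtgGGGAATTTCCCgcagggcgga
NFKBIZ, chr3:101827757-101827786, plus strand: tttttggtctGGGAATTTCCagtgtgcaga

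Distances here count from the RefSeq start of a window, which can differ from the GENCODE gene bounds given further below. The match of NFKBIA began 81 bases before its RefSeq start, that of NFKB1 49 bases and that of REL 47 bases before. The NFKBIZ match lay farther out, at 223 bases before the RefSeq start of its upstream window. The BCL3 match lay just past its RefSeq start, from base 3 to base 12. By the GENCODE bounds, the matches shown for REL, NFKB2 and NFKBIB and that of BCL3 lie inside the gene. Neither RELA window held a match, nor did the most upstream window of NFKB2 or of NFKBIB. NFKB2 had 5 matches over 3 windows, counting overlapping ones, and 2 of the windows held all of them.

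Depth and composition differed between the libraries. The totals were 5474462 counts in replicate 1, 1441246 in replicate 2 and 1314812 in replicate 3, so 1 count was worth 0.20, 0.629 and 0.767 CPM (counts relative to the TMM-scaled library size). Genes typed as antisense took 0.251% of the counts in replicate 1, 2.04% in replicate 2 and 2.09% in replicate 3, so replicate 1 stood apart. GC-rich genes were low in replicate 2. In the most GC-rich of 8 bins (median 61.0% GC) the median deviation from a gene's own mean was 0.55, -0.80 and 0.29 on the log2 scale in replicates 1, 2 and 3. Of the listed B cell genes 8 of 8 reached 1 CPM in every library, as did 68.0% of all genes in the table. Reaching 1 CPM therefore does not tell cell types apart. The means of the B cell genes ran from 22.9 CPM for CD22 to 2447 CPM for CD74. Of 5 listed T cell markers only CD2 matched a row, with 7, 0 and 0 counts, and no NK cell marker matched one. The highest markers of other cell types were KRT8 at 32.4 ± 14.1 CPM and MPO at 24.7 ± 6.22 CPM (SD, n = 3 each), both above the mean of CD22. CD22 had 53.4, 10.1 and 5.37 CPM in replicates 1, 2 and 3.

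All 10 members reached 1 CPM in every library, as did 68.0% of all genes in the table. In sum, the IkB family genes outweighed the subunit genes. NFKBIA alone held 46.3%, 78.5% and 77.7% of the IkB sum per kb in replicates 1, 2 and 3. Per kb of merged exon, the 5 IkB genes summed to 339, 419 and 516 CPM in replicates 1, 2 and 3, and the 5 subunit genes to 93.4, 84.4 and 73.3 CPM. The ratio of the sums was 5.21 ± 1.72 (SD, n = 3). Without length correction the IkB sums were 1200.4, 1177 and 1464 CPM and the subunit sums 528, 581 and 398 CPM, and the mean log2 ratio was 1.36. The ratio per kb lay above 1 in 3 of 3 libraries, and its log2 averaged 2.32. An exact permutation test that flips signs over the libraries (two-sided) gave p = 0.25, the smallest that 3 libraries allow, and 0.292 after adjustment over 7 comparisons. The median member had 93.1 CPM, against 23.2 CPM for the median of all 10016 genes whose counts averaged at least 10.

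**Figure D1:**
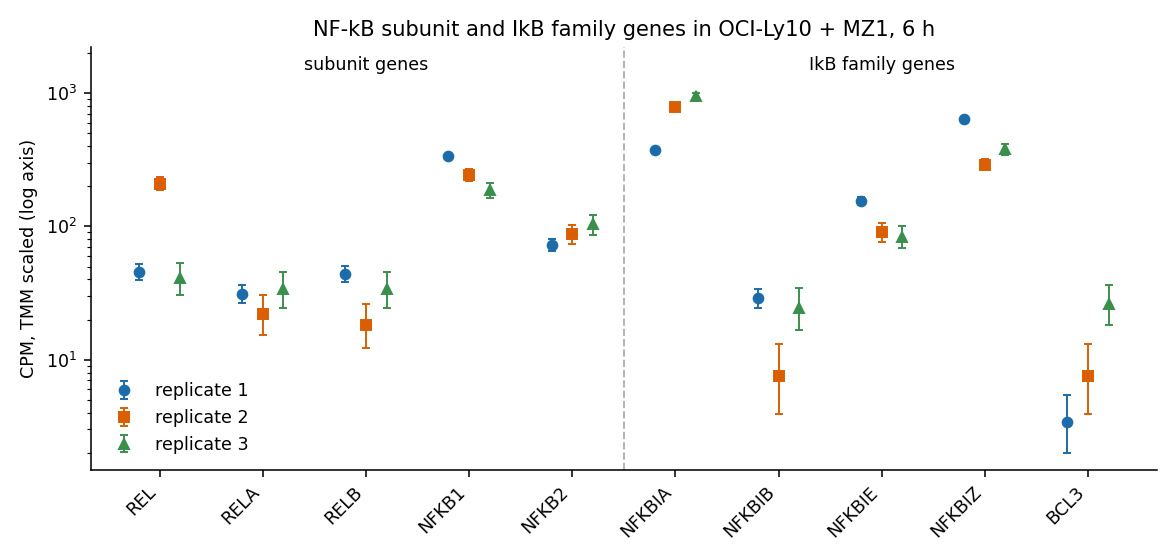
Level of each member in the 3 libraries, in CPM on a log axis, with subunit genes left and IkB family genes right of the dashed line. Bars are exact Poisson 95% intervals of the counts and cover counting error only. REL stood at 209 CPM in replicate 2, above 45.6 and 40.7 CPM in replicates 1 and 3.

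NFKB1, which encodes p105 and p50 (ENSG00000109320.10, chromosome 4, 102501329 to 102617302, plus strand), was the leading subunit gene. It had 335, 244 and 186 CPM in replicates 1, 2 and 3, from 1677, 388 and 243 counts. Replicate 1 was the highest and replicate 3 the lowest. Its mean was 255 ± 75.1 CPM (SD, n = 3). NFKB1 made up 57.4%, 46.2% and 40.7% of the summed CPM per kb of the 5 subunit genes, the largest share in each library. NFKB2, which encodes p100 and p52 of the alternative pathway (ENSG00000077150.16, chromosome 10, 102394110 to 102402529, plus strand), had 72.2, 87.4 and 104 CPM from 361, 139 and 135 counts. NFKB2 was second, with 17.2%, 23.1% and 31.5% of the subunit sum. Per kb it lay below NFKB1 in 3 of 3 libraries, with log2 ratios of -1.73, -1.0 and -0.36 (mean -1.03, exact two-sided permutation p = 0.25).

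RELB, the activating partner of p52 in the alternative pathway (ENSG00000104856.12, chromosome 19, 45001430 to 45038198, plus strand), had 44.2, 18.2 and 33.8 CPM from 221, 29 and 44 counts. RELA, the p65 subunit of the classical pathway (ENSG00000173039.17, chromosome 11, 65653596 to 65663094, minus strand), had 31.2, 22.0 and 33.8 CPM from 156, 35 and 44 counts. RELA was the least abundant subunit gene by mean CPM per kb, at 5.30 ± 1.13 CPM per kb (SD, n = 3), and made up 6.11%, 4.77% and 8.43% of the subunit sum. This rank rests on REL in replicate 2, since REL was below RELA per kb in the other libraries. RELB lay above RELA per kb in 3 of 3 libraries, by a mean log2 ratio of 0.93 ± 0.39 (SD). The exact two-sided permutation p of this ratio was 0.25. The ratio rests on the exon lengths of 3035 bases for RELB and 5464 for RELA, and without length correction it was 0.08, with RELB below RELA in replicate 2 and equal to it in replicate 3.

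REL, the c-REL subunit prominent in B cells (ENSG00000162924.12, chromosome 2, 60881521 to 60931610, plus strand), had 45.6, 209 and 40.7 CPM in replicates 1, 2 and 3, from 228, 333 and 53 counts. Replicates 1 and 3 lay close together and replicate 2 far above both, a 5.15-fold range. The mean was 98.5 ± 96.0 CPM (SD, n = 3), and 43.1 CPM without replicate 2. REL varied among the 3 libraries (chi-square test, adjusted p = 1.79e-95), and no variation was detected without replicate 2 (adjusted p = 0.568). At 38.7% GC, REL was the most AT-rich member, and the genes of its GC bin were 0.16 above their means in replicate 2 on the log2 scale, against 1.51 for REL. After subtraction of that bin median REL still had 48.7, 187 and 41.9 CPM. Its share of the subunit sum was 3.71%, 18.8% and 4.21%. REL lay above RELA per kb in replicate 2 alone, by a log2 ratio of 1.95, and below it in replicates 1 and 3 by -0.73 and -1.0 (mean 0.07, exact two-sided permutation p = 1). Without length correction REL was the higher in 3 of 3 libraries, with a mean log2 ratio of 1.34. Of the 13170 merged exon bases of REL, 5702 overlap the gene AC010733.2 on the same strand, which has no row in the table used here. How reads in shared exons were counted is not stated.

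**Figure D2:**
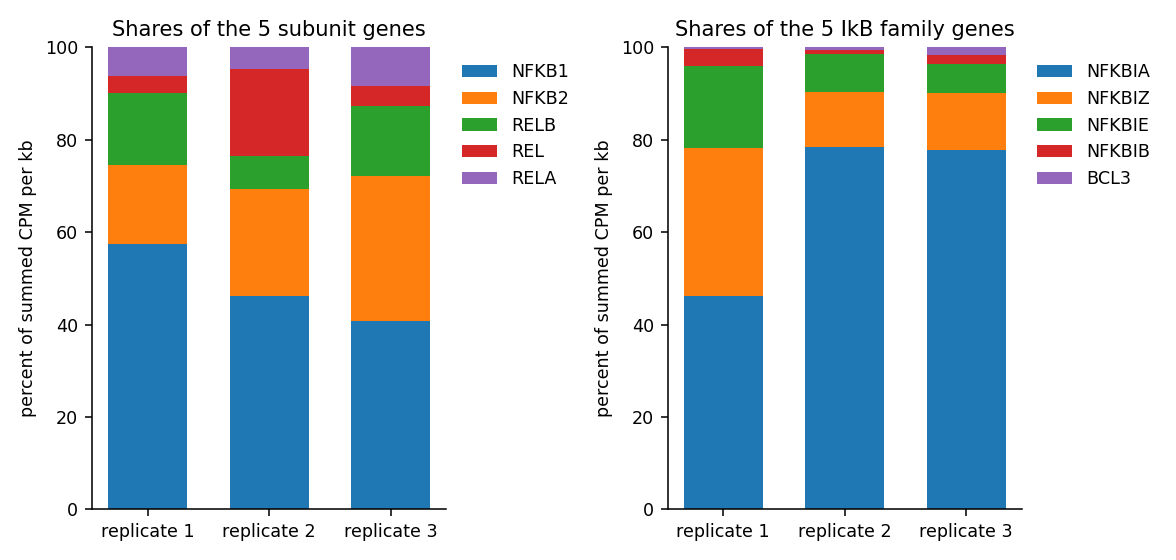
Makeup of the subunit sum (left) and of the IkB family sum (right) in each library, as percent of summed CPM per kb of merged exon. NFKB1 had the largest subunit share in each library, 57.4%, 46.2% and 40.7%, and NFKBIA the largest IkB share, 46.3%, 78.5% and 77.7%.

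NFKBIA, which encodes IkB alpha, the fast feedback inhibitor (ENSG00000100906.9, chromosome 14, 35401511 to 35404749, minus strand), had 372, 781 and 951 CPM from 1862, 1242 and 1240 counts. Replicate 1 was below replicates 2 and 3 by more than the counting intervals, which ran from 356 to 390 CPM in replicate 1 and from 738 to 825 CPM in replicate 2. Per kb it averaged 296 ± 125 CPM (SD, n = 3), at percentile 98.4 of the genes with at least 1 CPM in every library. It was the highest member per kb in 3 of 3 libraries, and held 46.3%, 78.5% and 77.7% of the IkB family sum.

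NFKBIE, which encodes IkB epsilon (ENSG00000146232.13, chromosome 6, 44258166 to 44265788, minus strand), had 155, 90.5 and 83.6 CPM from 777, 144 and 109 counts. Replicate 1 was the highest, and between replicates 2 and 3 the chi-square test detected no difference (adjusted p = 0.404). NFKBIB, which encodes IkB beta (ENSG00000104825.15, chromosome 19, 38899700 to 38908893, plus strand), had 28.8, 7.54 and 24.5 CPM from 144, 12 and 32 counts, with replicate 2 low. Its exons overlap 40 bases of SIRT2 on the opposite strand, which had 96, 7 and 6 counts. Both lay below NFKBIA per kb in 3 of 3 libraries. The log2 ratio to NFKBIA was -2.74 ± 1.20 for NFKBIE and -5.14 ± 1.47 for NFKBIB (SD; exact two-sided permutation p = 0.25 for each). Leaving out replicate 1, where NFKBIA was low, moved these ratios to -3.42 and -5.90, and leaving out replicate 2 moved that of NFKBIB to -4.43.

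NFKBIZ, which encodes the nuclear IkB zeta (ENSG00000144802.10, chromosome 3, 101827991 to 101861022, plus strand), had 641, 291 and 378 CPM from 3204, 463 and 493 counts. Replicate 1 was the highest and replicate 2 the lowest. Per kb it stood next after NFKBIA at 74.0 ± 30.8 CPM (SD, n = 3). BCL3, the other nuclear member (ENSG00000069399.11, chromosome 19, 44747705 to 44760044, plus strand), had the lowest mean per kb, with 3.40, 7.54 and 26.1 CPM from 17, 12 and 34 counts. Replicate 3 was above both other libraries, and the mean of 12.3 ± 12.1 CPM (SD, n = 3) became 5.47 CPM without it. BCL3 lay below NFKBIZ per kb in 3 of 3 libraries, by log2 ratios of -6.50, -4.32 and -2.97 (mean -4.59, exact two-sided permutation p = 0.25). Without replicate 1 the mean ratio was -3.65, and without replicate 3 it was -5.41. BCL3 exons contain the 65 bases of the microRNA gene MIR8085 on the same strand.

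**Figure D3:**
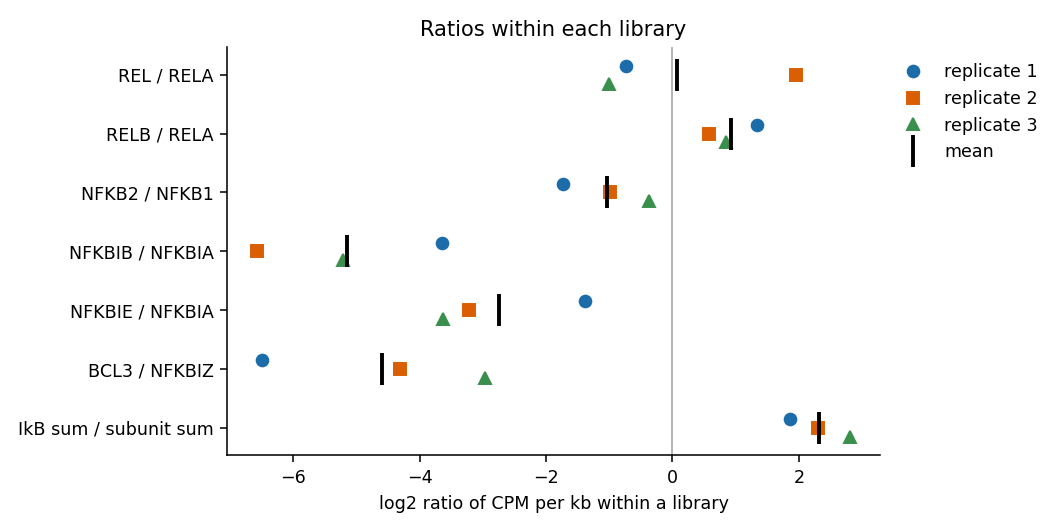
Log2 ratio of CPM per kb for 7 comparisons, 1 point per library and a bar for the mean. The 3 libraries fall on the same side of 0 in each comparison except REL over RELA, where replicate 2 lies at 1.95 and replicates 1 and 3 at -0.73 and -1.0.

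Ordered by mean CPM per kb, the members ran NFKBIA, NFKBIZ, NFKBIE, NFKB1, NFKB2, RELB, NFKBIB, REL, RELA and BCL3. Neighbours were taken to differ beyond their spread where the order held in 3 of 3 libraries and the mean log2 ratio exceeded its SD. This held for NFKBIA over NFKBIZ (1.97 ± 1.25), NFKBIZ over NFKBIE (0.77 ± 0.25), NFKB1 over NFKB2 (1.03 ± 0.68) and NFKB2 over RELB (0.95 ± 0.77). NFKBIE and NFKB1 did not differ in this way, at 0.05 ± 0.17, nor did any neighbours from RELB down to BCL3. The upper 5 places were thus held by NFKBIA, NFKBIZ, NFKBIE, NFKB1 and NFKB2, with an unresolved order in the middle of them, and the order of the lower 5 was not resolved.

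Each gene's counts were set against equal expression in the libraries. By this chi-square test, adjusted by Benjamini-Hochberg over all 10016 genes tested, 9 of 10 members varied between libraries. The background was 67.2% of all genes tested. That share rises with the count: with a minimum mean count of 50 it was 81.1%, and 8 of the 9 members tested varied. The test compares libraries and not conditions. RELA was the exception (adjusted p = 0.155). Adjusted p was 2.76e-20 for NFKB1, 0.00198 for NFKB2, 3.82e-05 for RELB and 1.72e-177 for NFKBIA. It was 2.92e-05 for NFKBIB, 4.35e-14 for NFKBIE, 3.00e-74 for NFKBIZ and 2.02e-14 for BCL3. Without replicate 1, 6 of 10 members varied (33.8% of all genes tested). Without replicate 2 the number was also 6 (45.2%), and without replicate 3 it was 7 (56.2%). The median range between the highest and the lowest library was 2.31-fold over the members and 2.04-fold over all genes tested. REL and BCL3 were at the wide end, as 8.84% and 7.46% of the tested genes had a log2 SD at least as large as theirs, and NFKB2 and RELA at the narrow end, at 82.5% and 74.9%.

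Members did not share 1 pattern across the libraries. Replicate 1 was the highest for RELB, NFKB1, NFKBIB, NFKBIE and NFKBIZ, which is 5 of 10 members, while 43.1% of the genes with a mean of 10 CPM or more were highest there. It was the lowest for NFKBIA, NFKB2 and BCL3. Replicate 2 was the highest for REL, 1 of 10 members (28.7% of those genes), and replicate 3 for RELA, NFKB2, NFKBIA and BCL3, 4 of 10 members (28.2%). Some of these places were not resolved by the chi-square test. No difference was detected between replicates 1 and 3 for NFKBIB, RELB and RELA (adjusted p = 0.532, 0.176 and 0.738). Nor was one between replicates 2 and 3 for NFKB2 (adjusted p = 0.536). NFKBIA and NFKBIZ, the highest IkB genes per kb, thus had opposite extremes in replicate 1.

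GC content moved with part of this spread. RELB (65.4% GC) and NFKBIB (60.5% GC) had low replicate 2 values, as GC-rich genes had in general. After the median deviation of the GC bin was taken off, RELB had 30.2, 31.8 and 27.7 CPM and NFKBIB 19.7, 13.2 and 20.1 CPM, and neither varied (adjusted p = 0.851 and 0.449). NFKB2 (62.4% GC) moved the other way. Its 72.2, 87.4 and 104 CPM became 49.3, 152 and 85.0 CPM, and its range was 3.09-fold with the offset and 1.43-fold without it. NFKBIE (61.0% GC) became 106, 158 and 68.6 CPM, so that replicate 2 and not replicate 1 was the highest. REL, NFKBIA, NFKBIZ, NFKB1, NFKBIE and BCL3 still varied, so 7 of 10 members did (61.0% of all genes tested). With this offset 2 of 10 members were highest in replicate 1, NFKB1 and NFKBIZ, where 39.0% of the genes with a mean of 10 CPM or more were.

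**Figure D4:**
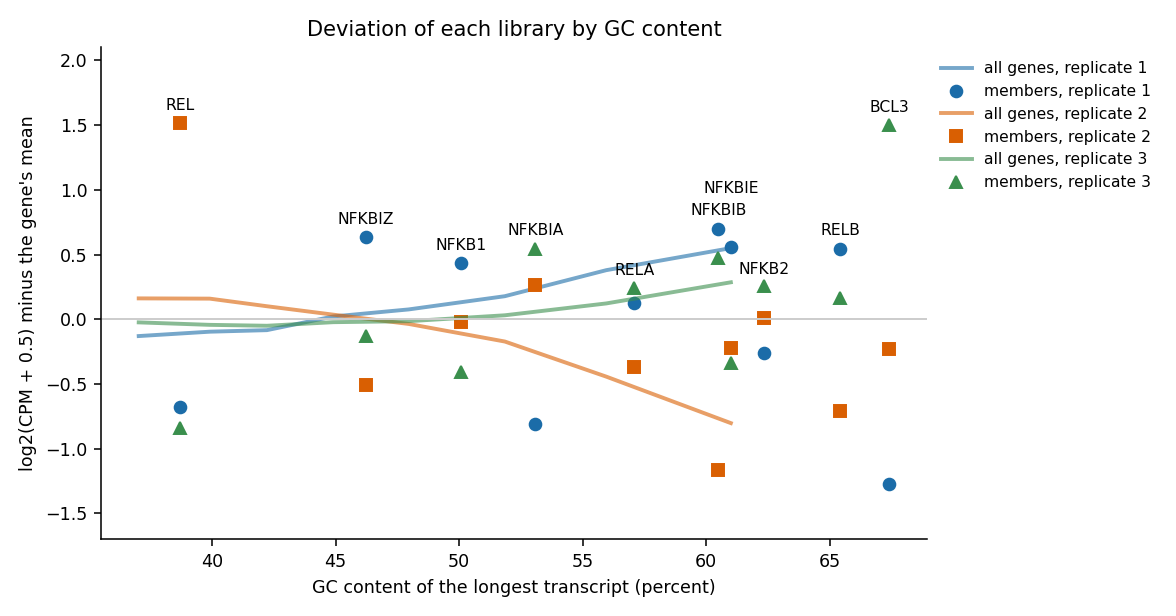
Deviation of each library from a gene's own mean, on the scale of log2(CPM + 0.5), against GC content of the longest transcript. Points are the members, and lines join the medians of 8 GC bins over the genes with a mean of 10 CPM or more. RELB and NFKBIB have replicate 1 highest and replicate 2 lowest, the order of the lines at high GC, while REL in replicate 2 (1.51) and BCL3 in replicate 3 (1.5) lie far above them.

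The log2 CPM in the authors' deposited table placed REL at 5.98, 8.27 and 5.67, with replicate 2 high as above. In the authors' deposited table NFKBIA had 9.0, 10.17 and 10.2, lowest in replicate 1, and NFKBIZ had 9.79, 8.74 and 8.87, highest there. RELA had 5.44, 5.04 and 5.4 in the authors' deposited table, highest in replicate 1 and not in replicate 3. NFKB2 had 6.64, 7.010 and 7.007 there, highest in replicate 2 by a small margin and not in replicate 3. Over the genes with a mean of 10 CPM or more the deposited values lay 0.43 above log2(CPM + 0.5), and 0.44 above over the members. The shift was not the same in each library: its median over those genes was 0.455, 0.547 and 0.302 in replicates 1, 2 and 3.

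Other genes of the pathway were taken from fixed lists, and of each longer list genes among the 3 highest and the lowest per kb are named. The IKK complex, which marks IkB proteins for degradation, was low at the RNA level. IKBKB, its main catalytic subunit for classical signalling, had 15.2, 11.9 and 25.3 CPM, CHUK, the subunit that acts on p100, 10.4, 8.80 and 3.84 CPM, and IKBKG, the regulatory subunit NEMO, 4.20, 1.26 and 1.53 CPM. Per kb they averaged 1.56, 1.11 and 0.660 CPM, each below the mean of the lowest member, BCL3, at 3.81 CPM per kb. That order of means rests on BCL3 in replicate 3, at 8.05 CPM per kb. In replicate 1 BCL3 was at 1.05 CPM per kb, below each IKK gene. Of the 2 tested, IKBKB varied between libraries (adjusted p = 0.0205) and CHUK did not pass the threshold (adjusted p = 0.114).

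Upstream activators had a median of 3.05 CPM per kb over 14 genes, against 10.6 for the subunit genes and 42.6 for the IkB family genes. The kinase gene PRKCB had 155, 104 and 62.9 CPM and the adaptor gene BCL10 43.8, 28.9 and 33.0 CPM. Both link the B cell receptor to IKK. The lowest was the ubiquitin ligase gene TRAF6, with 1.4, 4.4 and 0.767 CPM. Between libraries 5 of 13 tested activators varied, or 1 of 12 without replicate 1, where the shares of all genes tested were 67.2% and 33.8%.

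In the alternative pathway list 8 of 9 genes matched a row. Of the 7 tested, 6 varied (67.2% of all genes), or 3 without replicate 1 (33.8%). TNFRSF13B, which encodes the BAFF and APRIL receptor TACI, had 117, 759 and 317 CPM, highest in replicate 2 as REL was. CD40 had 115, 23.9 and 58.3 CPM and the ubiquitin ligase gene BIRC2 34.2, 51.5 and 37.6 CPM. TNFRSF17 had 2, 0 and 0 counts. Genes of IkB turnover had a median of 14.7 CPM per kb, and 5 of 7 varied, near the 67.2% of all genes, or 1 of 7 without replicate 1 (33.8%). The ubiquitin-conjugating enzyme gene UBE2D3 had 307, 465 and 541 CPM, the cullin partner gene RBX1 171, 55.9 and 86.7 CPM and NEDD8, the modifier of cullins, 87.8, 64.7 and 52.9 CPM. BTRC, a receptor of the ligase that takes phosphorylated IkB, was the lowest at 5.80, 8.80 and 6.90 CPM.

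Feedback inhibitors outside the IkB family lay well below NFKBIA. TNIP1, a partner of A20, had 22.3 ± 6.30 CPM per kb, TNFAIP3, which encodes A20, 17.3 ± 10.1 and the adaptor gene TRAF1 6.02 ± 2.92, against 296 ± 125 for NFKBIA (SD, n = 3 each). OTUD7B was the lowest at 0.794 ± 0.549 CPM per kb. Of the list 5 of 7 genes varied (67.2% of all genes), or 3 of 6 without replicate 1 (33.8%). Other NF-kB target genes had a median of 31.7 CPM per kb. PLEK had 332 ± 140, CD83, a marker of activated B cells, 309 ± 74.1 and the survival gene BCL2A1 179 ± 41.1 CPM per kb, and all 3 means lay within the SD of NFKBIA. Levels within a library were less alike, since all 3 fell from replicate 1 to replicate 3 while NFKBIA rose. PLEK had 1608, 986 and 705 CPM, against 372, 781 and 951 CPM for NFKBIA. IL6 was at 0 counts, where the limit (3 counts per library) is 0.60 CPM in replicate 1, 1.89 CPM in replicate 2 and 2.3 CPM in replicate 3. Of 18 tested target genes 15 varied between libraries (67.2% of all genes), and 11 of 17 without replicate 1 (33.8%). Of the 17 target genes of at least 10 CPM, 12 were highest in replicate 1 (43.1% of all such genes). Replicate 1 differed from the others in depth and antisense share. The number of targets highest in replicate 1 was not counted with the GC offset. With that offset some calls of variation among the targets were lost or gained. The cause was not tested. CHUK, IKBKG, BCL10, UBE2D3, NEDD8, TNFAIP3 and IL6 share exon positions with a gene on the other strand, and with no strand setting stated, reads of such partners cannot be told apart.

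**Figure D5:**
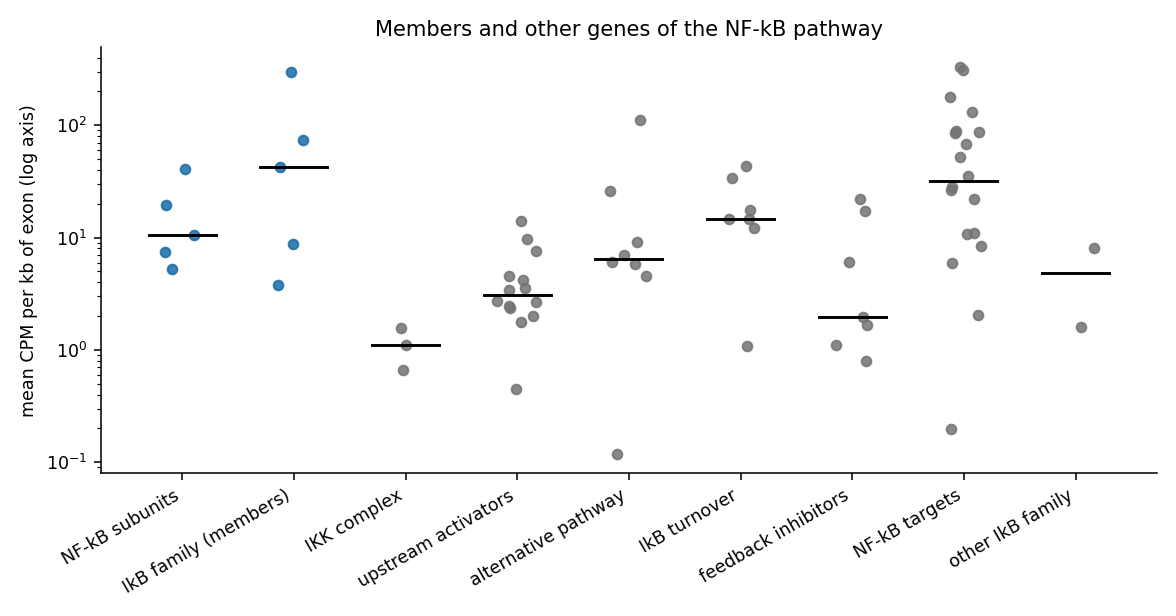
Mean CPM per kb of merged exon of each gene (points, log axis) and the median of each list (bars), with the members in blue and the fixed pathway lists in grey. IL6, with no count, is counted in its list's median but has no point. The IKK genes lie at 0.660 to 1.56 and the IkB family members between 3.81 and 296 CPM per kb.

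The genes whose pattern over the 3 libraries lay nearest to that of NFKBIA were AC009403.1 (6.60, 14.5 and 18.4 CPM), the ribosomal protein gene RPL7 (2747, 5901 and 7370 CPM) and C2CD5 (36.0, 72.3 and 89.8 CPM). Likeness was the distance of the centred log2(CPM + 0.5) values, 0.05 for each. Over 3 libraries the measure is coarse, since 674 of 7510 genes lay within 0.5.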

How the data were processed

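RNA sequencing counts of 3 libraries of OCI-Ly10 cells with MZ1 for 6 h were analysed. The table deposited by the authors holds raw read counts per versioned Ensembl gene ID. A second deposited table holds the authors' log2 CPM, whose offset and library sizes are not stated. STAR, edgeR and hg38 are named per the submitters' processing notes. The counting tool, its strand setting, the annotation and all versions: not given in the sources used here.

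Counts were scaled with TMM factors of 0.914, 1.10 and 0.991 from edgeR 4.0.16 under R 4.3.3 to give CPM. CPM per kb used the merged exons of GENCODE 29 (GRCh38), joined by unversioned ID. The log2 scale is log2(CPM + 0.5), so differences of low genes are understated. With 1 group no edgeR contrast was possible. Genes whose counts averaged 10 or more were tested for differences between libraries by a chi-square test (Poisson, scipy 1.17.1) at an adjusted threshold of 0.05, a procedure tested on simulated data. Ratios within libraries were tested by exact sign-flip permutation over 3 libraries, which cannot go below 0.25. Overdispersion between cultures is not modelled, so the chi-square test calls any spread beyond counting noise.

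The members, lists and tests were chosen with earlier results of these data known. Named are all members, all IKK genes, and the 3 highest and the lowest gene per kb of each longer list. Some of the genes under this rule are not reported here. NFKBID and NFKBIL1 formed a further list. GC content was taken from the longest transcript, and the GC offset is the median deviation of a gene's GC bin in each library. Alternatives were DESeq2 1.42.0 size factors, column totals, the GC offset, other filters, thresholds, pseudocounts and lengths, thinning to equal depth, the deposited log2 values and leaving out each library. Poisson intervals (95%) and limits of a count of 0 cover counting error only, as PCR copies were not told apart by molecular identifiers.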

Additional observations from a re-analysis of the deposited data

How the results depend on the processing

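The count of varying members was 6 to 9 under the 10 alternatives run, while the share over all genes ran from 33.8% to 81.1%. With a minimum mean count of 50 only 9 members were tested, and 8 varied. Of 89 alternative values for the 9 members that varied, 11 lost the call, each for NFKB2, RELB, NFKBIB, NFKBIE, REL or BCL3. They included NFKB2 when the libraries were thinned to equal depth (adjusted p = 0.106), without replicate 1 (0.536) and without replicate 3 (0.0903), and RELB without replicate 1 (0.0563) and without replicate 2 (0.176). The cause was not tested. The mean log2 ratio of REL over RELA, 0.07 per kb of merged exon, reversed to -0.48 with the longest transcript as length, and ran from -0.87 to 0.61 when 1 library was left out. Without length correction it was 1.34. That setting also moved RELB over RELA to 0.08 and the IkB sum over the subunit sum to 1.36. The sign of the mean was otherwise kept by the other 6 comparisons in the alternatives run. Without length correction the share of REL among the subunit genes was 18.3% and that of RELB 6.66%, since REL has the longest exons. The median member level of 6.07 on the log2 scale was 6.51 in the deposited values, and the number of members highest in replicate 1 was 2 with the GC offset, against 5. No paired analysis was possible because the libraries form 1 group. Depth limits BCL3 and NFKBIB most, which had 12 counts in replicate 2.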

Other observations

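NFKBID encodes a further nuclear IkB protein and was singled out with its values known. It had 60.8, 7.54 and 9.21 CPM in replicates 1, 2 and 3, from 304, 12 and 12 counts. It varied between the libraries by the chi-square test (adjusted p = 4.30e-26), but not without replicate 1 (adjusted p = 0.835). NFKBID was highest in replicate 1, as were NFKBIZ and 43.1% of the genes with a mean of 10 CPM or more, whereas BCL3 was lowest there. Unlike NFKBID, NFKBIZ still varied without replicate 1 by the same test (adjusted p = 0.00969). At 62.9% GC, NFKBID still varied after the GC offset (adjusted p = 2.07e-12). NFKBIL1, listed with NFKBID, had 2.20, 2.51 and 3.84 CPM, and its exons overlap a gene on the opposite strand.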
